A study of Mus musculus with 2 samples.

Results

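Dividing keratinocytes of the basal layer renew the epidermis, and the transcripts described here encode the machinery of their division. The set held 44 mitosis and spindle genes of the 34820 gene names on the array, listed by gene name, and 63 of the 55676 tested probes carried these names. The arrays were 2-colour Agilent arrays, on which 60-base probes bind fluorescently labelled copies of RNA. Each of 2 arrays paired RNA from the epidermis of 1 K14-rtTA;TRE-Sox11-FLAG pup, labelled with Cy5, with RNA from 1 K14-rtTA littermate, labelled with Cy3. All pups were FVB/N mice of postnatal day 4.5 and all received doxycycline (Dox) for 12 h, so the control pups shared both the activator transgene and the drug. The K14 promoter drives rtTA in keratin 14 positive cells, and with Dox rtTA switches on the FLAG-tagged Sox11 transgene there. The RNA came from whole epidermal sheets, in which cells without keratin 14 are also present.

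Cells enter mitosis when cyclins A and B activate Cdk1, with Cdc25 phosphatases removing its inhibitory phosphates. Spindle microtubules then attach to chromosomes at kinetochores, and a checkpoint holds back the anaphase-promoting complex (APC/C) until attachment is complete. The APC/C with its activator Cdc20 next marks cyclin B and securin for destruction, which frees separase to part the sister chromatids, and a contractile ring divides the cell. Transcripts of this machinery are periodic, with a peak in G2 and mitosis, so in a tissue they are widely used as a readout of how many cells divide. Many of their promoters hold a CHR, the cell cycle genes homology region bound by the DREAM and MuvB complexes, near CCAAT boxes bound by NF-Y.

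Promoter letters were read from RefSeq sequences of the assembly GRCm38.p6, in a window from 250 bases before to 50 bases after each annotated start. The table held 36 of the 44 members, of which Prc1 and Ect2 had 2 starts each, and 4163 genes of the table had several. A gene counted as holding a motif where any of its windows did. The CHR was searched as TTTGAA or TTCGAA and the CCAAT box as CCAAT, each on both strands, and matches of both may share a base at their ends. A CHR match lay in 26 of the 36 members (72.2%), against 21.7% of the 27025 genes in the table. CCAAT lay in 28 members (77.8%), against 41.1% of genes. Both motifs lay in 24 members (66.7%), against 8.61% of genes. A match describes letters and does not show a site in use.

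Promoters are shown for 5 of the 6 members that passed the threshold in the array comparison, to show where the searched letters lie in them. Each runs 5′ to 3′ on the strand of its gene from 150 bases before to 30 bases after the start, and capitals mark CHR and CCAAT matches on either strand. The window of Birc5 is chr11:117849087-117849266, plus strand, and that of Spc25 is chr2:69206184-69206363, minus strand. The window of Mki67 is chr7:135716350-135716529, minus strand, that of Anln is chr9:22389177-22389356, minus strand, and that of Pttg1 is chr11:43425952-43426131, minus strand.
Birc5: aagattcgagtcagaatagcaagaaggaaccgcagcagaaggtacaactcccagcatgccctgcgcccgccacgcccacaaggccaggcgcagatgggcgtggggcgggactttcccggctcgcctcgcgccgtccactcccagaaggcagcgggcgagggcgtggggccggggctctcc
Spc25: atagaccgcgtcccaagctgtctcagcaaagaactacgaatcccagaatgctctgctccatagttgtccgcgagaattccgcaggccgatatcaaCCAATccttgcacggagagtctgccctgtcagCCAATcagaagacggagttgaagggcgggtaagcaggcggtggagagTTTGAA
Mki67: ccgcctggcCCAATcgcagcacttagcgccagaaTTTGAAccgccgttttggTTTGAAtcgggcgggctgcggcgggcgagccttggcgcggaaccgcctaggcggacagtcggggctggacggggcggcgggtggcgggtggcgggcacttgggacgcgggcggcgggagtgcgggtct
Anln: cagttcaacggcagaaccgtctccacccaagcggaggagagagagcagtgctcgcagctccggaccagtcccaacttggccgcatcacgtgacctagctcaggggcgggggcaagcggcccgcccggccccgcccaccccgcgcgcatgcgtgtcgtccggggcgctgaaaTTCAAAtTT
Pttg1: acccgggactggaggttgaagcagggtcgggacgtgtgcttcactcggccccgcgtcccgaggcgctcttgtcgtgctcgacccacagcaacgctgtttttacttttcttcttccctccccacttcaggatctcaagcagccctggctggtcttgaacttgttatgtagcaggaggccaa
Spc25 held CCAAT at -55 and -23 and TTTGAA at 25, counted from the start. Mki67 held a pair of TTTGAA matches in the printed stretch, at -116 and -98, behind a CCAAT at -141. In Anln, TTCAAA, which is TTTGAA read on the other strand, lay at 22, and the match that begins at 29 runs past the end printed here. No such letters were found for Birc5 or Pttg1, also over the longer window. Among the members that did not pass the threshold, 23 of 31 promoters held a CHR match, against 3 of 4 among the members called lower.

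A value of each gene is given as a log2 ratio, Cy5 over Cy3, which is positive where SOX11-induced epidermis was brighter, or as a log2 level in 1 channel of 1 array after normalization. For genes with several probes the brightest was used. Of the 44 members, 41 exceeded background on both arrays in 1 channel or more, and 39 did so in all 4 readings. Between 37.5% and 38.7% of spots were above background in the control channel, and 40.6% to 42.6% in the SOX11 channel. The dyes ran the same way on both arrays, so a dye effect and a genotype effect on a single probe cannot be told apart. Both probes for Sox11 itself were below background in every channel and do not check the genotype labels. Hair shaft and matrix genes set the pairs apart, since their summed level had log2 ratios of 2.22 (pair 1) and -0.32 (pair 2).

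Most mitosis and spindle transcripts had log2 ratios below 0 after 12 h of SOX11 induction. The median log2 ratio of the 44 members was -0.43, with -0.58 in pair 1 and -0.37 in pair 2, while the median of the 16341 names above background was 0.03. In all, 36 members were lower in both pairs, 3 were higher in both and 5 had opposite signs. Of all names, 33.4% were lower in both pairs, and of names above background 34.2% were. The means of 39 of the 44 members lay below the median of the names above background, and 35 lay in the range of the lowest 25% of these names. Both counts include Aurkb, and the 39 also Cdk1, which were not above background in any channel. In bulk epidermis, fewer dividing cells and less of these RNAs per cell cannot be told apart.

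Past an adjusted p of 0.05 in the limma fit, 5 members fell and 1 rose. The background was 1.78% of all names called lower and 3.52% called higher, and among names above background 3.52% and 6.93%. The 5 members called lower were Birc5, Ccna2, Spc25, Mki67 and Anln, and Pttg1 rose. Where SOX11 and control readings of these members are said below not to overlap, this restates the values behind the calls. Readings of Cdca8, which was not called, did not overlap either, and the share of all names was not counted. With unadjusted p under 0.05 in limma, 28 members were lower and 1 was higher. Of all 34820 names, 3596 were lower and 4287 higher by that measure. Of the 16341 names above background, 2139 were lower and 3050 higher. No member passed the log2 ratio of 1.5 in either direction that the study's methods set, which 0.615% of all names did together with the adjusted p. The paper's heat map caption for this comparison instead names a fold change above 1.5, without log2. The 5 members called lower were at 0.49 to 0.64 times the control, and Pttg1 at 1.75 times. With 2 arrays an exact sign-flip test cannot give p under 0.5, so the calls rest on the spread that limma borrows from all probes. Directions are relative to the loess curve through all probes of an array. When each array was instead centred on its overall median, the median of the names above background moved to 0.52 and that of the members to 0.03. Under that centring 19 members changed sign, while 41 of 44 members still lay below the median of the names above background.

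**Figure D1:**
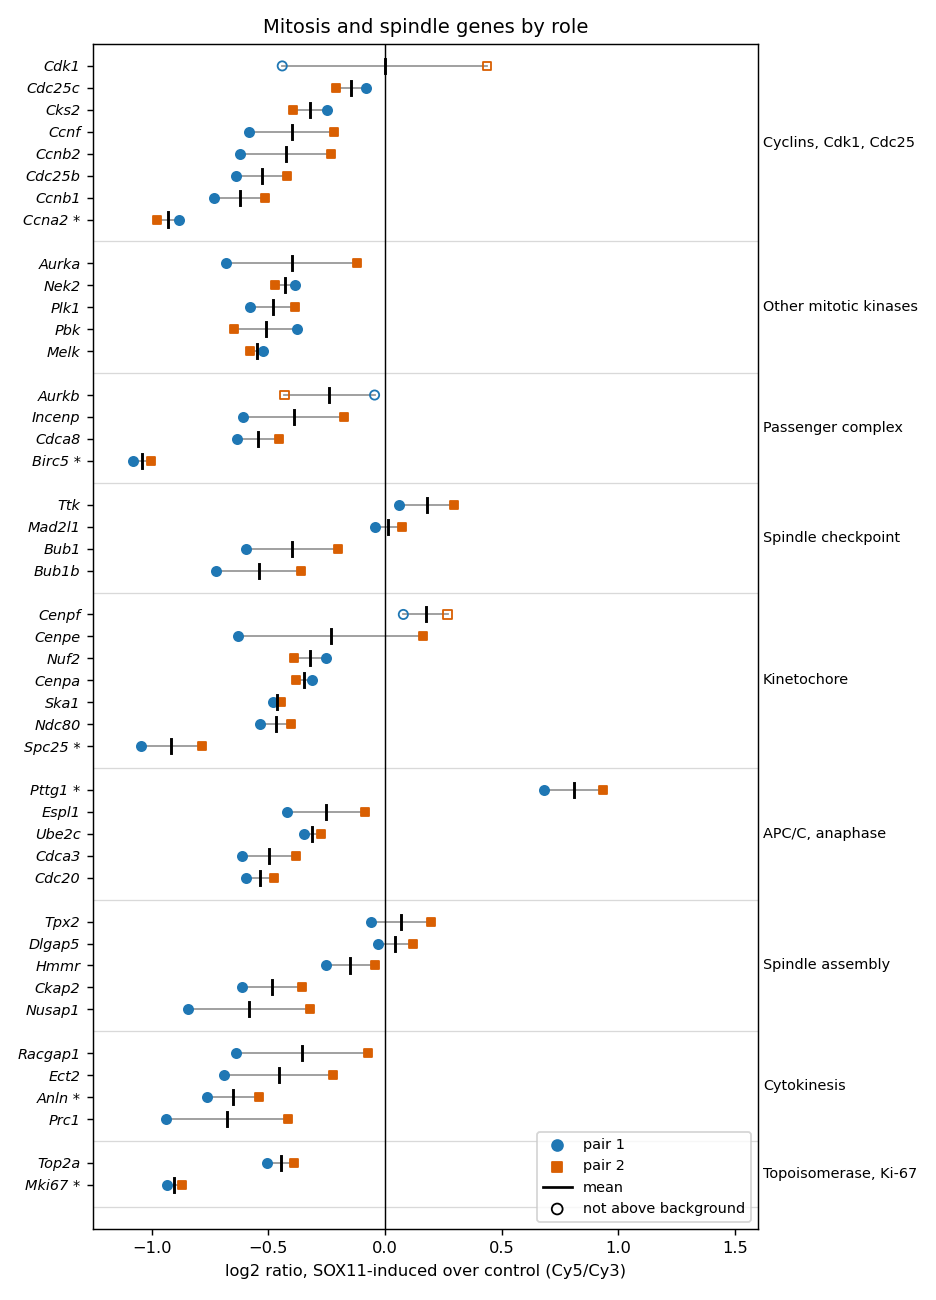
Log2 ratio (SOX11-induced over control, x axis) of each of the 44 members, grouped by role, with pair 1 as circles, pair 2 as squares and a black bar at the mean; open symbols mark members not above background and an asterisk an adjusted p under 0.05. Most members lie left of 0 in both pairs, with Birc5 farthest left at -1.04 and Pttg1 farthest right at 0.81.

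Among the cyclins and the regulators of Cdk1, Ccna2 fell. Ccna2 encodes cyclin A2, which acts in S phase and at mitotic entry. Its log2 level was 9.93 in the control and 9.05 in the SOX11 channel of pair 1, and 9.46 and 8.49 in pair 2. Both SOX11 readings were thus below both control readings. The log2 ratio was -0.93 ± 0.067 (SD, n = 2 pairs, adjusted p = 0.0098, limma), so the level fell by 47.4%. Under median centring it was -0.35 (adjusted p = 0.11), and with processed signals the adjusted p was 0.24. The mitotic cyclins did not pass with their brightest probes, at -0.62 for Ccnb1 (adjusted p = 0.056) and -0.42 for Ccnb2. Ccnf, a cyclin-like F-box protein, was at -0.40, and Cks2, a small subunit that binds Cdk1, at -0.32. The phosphatase gene Cdc25b was at -0.53 and Cdc25c at -0.15. No probe for Cdk1, the kinase itself, was above background in any channel, so the gene gives no fold change.

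The array carried 3 probes for Ccnb1, all above background, which did not read alike. They lie on chromosome 13 of mm9. The brightest, at 101548722-101548781, had the mean of -0.62. A dimmer probe at 101553449-101553508 (probe A) had -0.81 (adjusted p = 0.019, limma), past the threshold. The remaining probe, at 101551224-101551283 (probe B) had -0.01 (adjusted p = 0.98). Probes A and B, which differed most, are printed in full as the array carries them.
Ccnb1 probe A: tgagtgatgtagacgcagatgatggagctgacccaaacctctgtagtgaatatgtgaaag
Ccnb1 probe B: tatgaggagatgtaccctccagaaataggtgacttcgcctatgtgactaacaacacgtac
The reason for the gap between them was not tested. Of the 9 members with several probes above background, none had probes of opposite sign, but Cdca8 ranged from -0.54 to -0.01, Nuf2 from -0.32 to -0.01 and Pttg1 from 0.36 to 0.81.

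No gene of the other mitotic kinases passed the threshold, although all 5 had lower readings in both pairs and lay close together. The means ran from -0.55 to -0.40. Melk, a kinase of dividing progenitor cells, had -0.55 (adjusted p = 0.074) and Pbk, a mitotic kinase, -0.51. Plk1, which acts from mitotic entry to cytokinesis, had -0.48, and Nek2, a kinase of the centrosome, -0.43. Aurka, the Aurora kinase of spindle poles, differed between the pairs, at -0.68 and -0.12.

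The chromosomal passenger complex corrects faulty attachments and later guides cytokinesis, and its subunit gene Birc5 (survivin) had the lowest mean of all members. In pair 1 its log2 level was 11.68 in the control and 10.60 in the SOX11 channel, and in pair 2 it was 11.16 and 10.16. The SOX11 readings did not overlap with the control readings. The log2 ratio was -1.04 ± 0.055 (SD, n = 2 pairs, adjusted p = 0.0055), so the level fell by 51.4%. Under median centring it was -0.40 (adjusted p = 0.073), as a mean over its 3 probes it was -0.61 (adjusted p = 0.053), and with processed signals the adjusted p was 0.24. A second probe above background gave -0.84 (adjusted p = 0.019). Cdca8 (borealin) was at -0.54 and Incenp, the scaffold of the complex, at -0.39, neither past the threshold. Aurkb, its kinase, was not above background in any channel.

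At the kinetochore, Spc25 fell. Spc25 is a subunit of the NDC80 complex, which grips the microtubule. Control and SOX11 channels read log2 levels of 10.43 and 9.39 in pair 1, and of 9.69 and 8.90 in pair 2. Again both SOX11 readings were below both control readings. The log2 ratio was -0.91 ± 0.187 (SD, n = 2 pairs, adjusted p = 0.013), so the level fell by 47.0%. Median centring gave -0.32 (adjusted p = 0.15), and processed signals an adjusted p of 0.28. The other subunits of that complex on the list did not pass, with -0.47 for Ndc80 and -0.32 for Nuf2. Ska1, which follows shrinking microtubule ends, was at -0.46, and Cenpa, the histone of centromeres, at -0.35. Cenpe, a kinetochore motor, was at -0.63 in pair 1 and 0.16 in pair 2. Cenpf, an outer kinetochore protein, was not above background, with log2 levels of 5.37 in both controls against 5.45 and 5.64 in the SOX11 channels.

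None of the 4 checkpoint genes passed the threshold, and their means lay on both sides of 0. Bub1b (BubR1) was at -0.54 and its partner Bub1, a kinase, at -0.40. Mad2l1, the MAD2 subunit that inhibits Cdc20, was at 0.02. For Ttk, the kinase that starts checkpoint signalling, the log2 level was 5.84 in the control and 5.90 in the SOX11 channel of pair 1, and 5.42 and 5.72 in pair 2. The control readings were not above background, so no fold is given, and the mean log2 ratio was 0.18 ± 0.164 (SD, n = 2 pairs, adjusted p = 0.55).

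**Figure D2:**
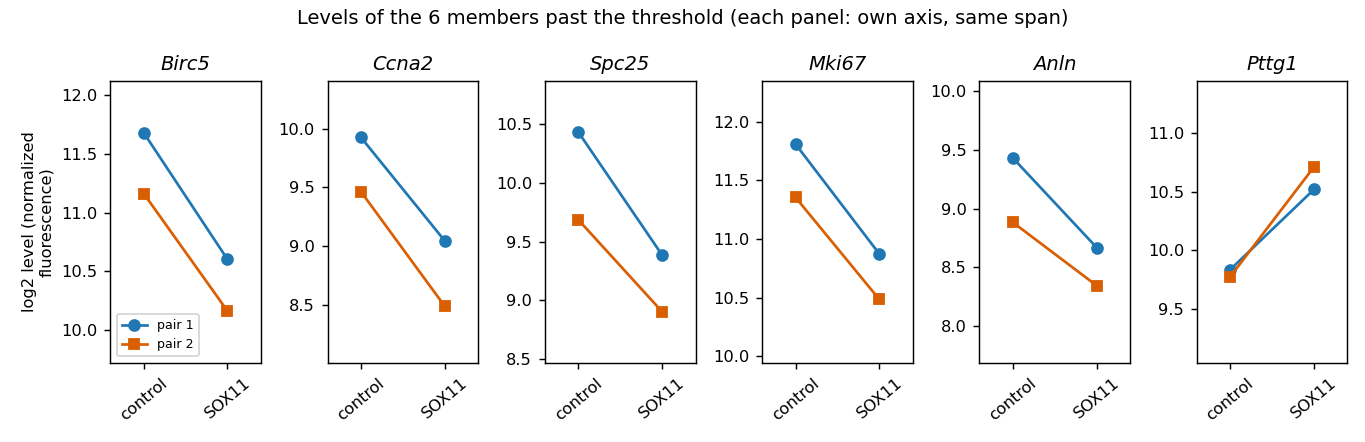
Log2 level of normalized fluorescence (y axis, own axis per panel with the same span) of the 6 members past the threshold, in the control and the SOX11 channel of each array, with a line per littermate pair. Both lines fall in 5 panels and rise in that of Pttg1, and levels should not be compared between panels because each is 1 probe.

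Among the genes of the APC/C and anaphase, Pttg1 stood against the others. Pttg1 encodes securin, the inhibitor of separase. From the control to the SOX11 channel, its log2 level went from 9.84 to 10.52 in pair 1 and from 9.78 to 10.71 in pair 2. Both SOX11 readings were above both controls. The log2 ratio was 0.81 ± 0.178 (SD, n = 2 pairs, adjusted p = 0.021), a 1.75-fold rise, and its second probe gave 0.36 (adjusted p = 0.28). The mean over both probes was 0.58 (adjusted p = 0.085), median centring gave 1.43, and processed signals gave an adjusted p of 0.29. Espl1, which encodes separase, was at -0.25. Cdc20, the activator of the APC/C, was at -0.53 (adjusted p = 0.082), Cdca3, an F-box protein of mitotic entry, at -0.50, and Ube2c, the ubiquitin-conjugating enzyme of the APC/C, at -0.31.

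The genes of spindle assembly were spread on both sides of 0 and none passed. Nusap1, which bundles spindle microtubules, was at -0.58, with -0.85 in pair 1 and -0.32 in pair 2. Ckap2, another microtubule protein, was at -0.48 and Hmmr, a spindle-pole protein, at -0.15. Tpx2, the activator of Aurora A, had log2 levels of 8.14 in the control and 8.08 in the SOX11 channel of pair 1, and 7.91 and 8.11 in pair 2. These readings overlap, and the mean was 0.07 ± 0.180 (SD, n = 2 pairs, adjusted p = 0.84). Dlgap5 (HURP), which stabilizes microtubules near chromosomes, had 5.85 and 5.82 in pair 1 and 5.51 and 5.63 in pair 2. Its control readings were not above background, so no fold is given, and the mean log2 ratio was 0.04 ± 0.107 (SD, n = 2 pairs, adjusted p = 0.90).

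In cytokinesis, Anln fell. Anln encodes anillin, a scaffold of the contractile ring. The log2 level went from 9.43 in the control to 8.67 in the SOX11 channel of pair 1, and from 8.88 to 8.34 in pair 2. The groups did not overlap. The log2 ratio was -0.65 ± 0.158 (SD, n = 2 pairs, adjusted p = 0.048), so the level fell by 36.3%, and it passed the threshold in 3 of 8 other ways of processing. Median centring gave -0.09 (adjusted p = 0.68). Prc1, which bundles the midzone of the spindle, had a lower mean of -0.68 ± 0.370 (SD, n = 2 pairs) but a wider spread and an adjusted p of 0.061. Its log2 level was 9.87 in the control and 8.94 in the SOX11 channel of pair 1, and 9.26 and 8.84 in pair 2, so that the SOX11 readings were close to each other and below both controls. Ect2, the exchange factor that activates RhoA at the cell equator, was at -0.46, and its partner Racgap1 at -0.36.

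Mki67, the gene of the proliferation marker Ki-67, a protein of the surface of mitotic chromosomes, fell with the narrowest spread of the called members. Its log2 level was 11.81 in the control and 10.87 in the SOX11 channel of pair 1, and 11.35 and 10.48 in pair 2. Both SOX11 readings were below both controls. The log2 ratio was -0.90 ± 0.047 (SD, n = 2 pairs, adjusted p = 0.011), so the level fell by 46.5%, and its other probe gave -0.97 (adjusted p = 0.0077). Median centring gave -0.26 (adjusted p = 0.23), and processed signals an adjusted p of 0.24. Top2a, the topoisomerase that untangles sister chromatids, was at -0.45 (adjusted p = 0.13).

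**Figure D3:**
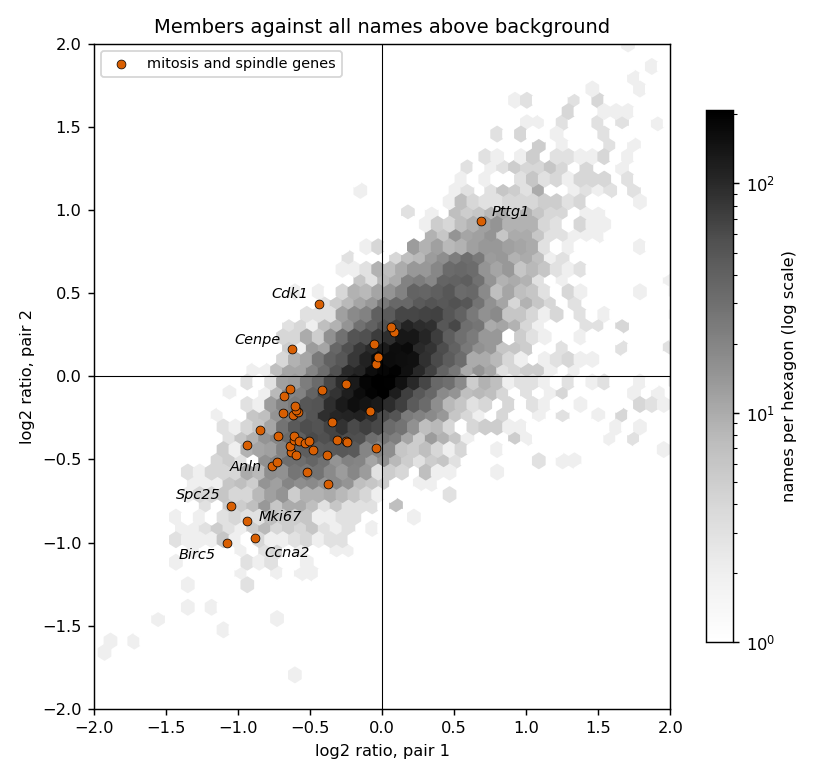
Log2 ratio in pair 1 (x axis) against pair 2 (y axis), with the 44 members as orange points over the density of the 16341 names above background (grey, log scale). The members crowd the lower left, Pttg1 lies in the upper right, and Cenpe and Cdk1 (not above background) have opposite signs.

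The rest of the mitotic machinery was examined in a list of 85 further genes, of which 71 were above background. Its median log2 ratio was -0.24, and 56 genes (65.9%) were lower in both pairs, against 33.4% of all names. Past the threshold, 6 fell (7.06%) and 1 rose (1.18%), against 1.78% and 3.52% of all names. The falls were in Cenpk (-0.90) and Cenph (-0.68), subunits of the inner kinetochore, in Casc5 (-0.69), the kinetochore scaffold now named Knl1, in Smc4 (-0.79), a condensin subunit, in Kif18a (-0.79, not above background on both arrays), a kinesin that dampens chromosome movement, and in Shcbp1 (-0.69). The rise was in Tfdp2 (0.66), a partner of E2F factors. The 15 regulators of mitotic transcription in that list ran from -0.64 to 0.66. Foxm1, an activator of G2 and mitotic genes, was at -0.24 (adjusted p = 0.41), and Mybl2, the B-MYB that joins MuvB, was at 0.46 in pair 1 and -0.17 in pair 2.

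In a list of 45 S phase genes, 38 of them above background, the median log2 ratio was -0.20. Of these 45 genes, 26 (57.8%) were lower in both pairs, against 33.4% of all names. Past the threshold, 4 fell (8.89%) and 2 rose (4.44%), against 1.78% and 3.52% of all names. Tk1, the thymidine kinase of the nucleotide salvage pathway, was at -0.86, Rfc5 of the clamp loader at -0.72, and the catalytic subunits of the replicative polymerases, Pold1 and Pole, at -0.68 and -0.67. Gins1, of the replicative helicase, was at 0.86 and Chaf1b, of a chromatin assembly factor, at 0.77. The log2 ratio of pair 1 was below that of pair 2 for 35 of 44 members, 60 of 85 other mitotic genes and 10 of 45 S phase genes. Of all 34820 names, 17640 had this order. The median of the S phase genes was -0.10 in pair 1 and -0.31 in pair 2. Whether the members differed from the other lists was not tested.

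**Figure D4:**
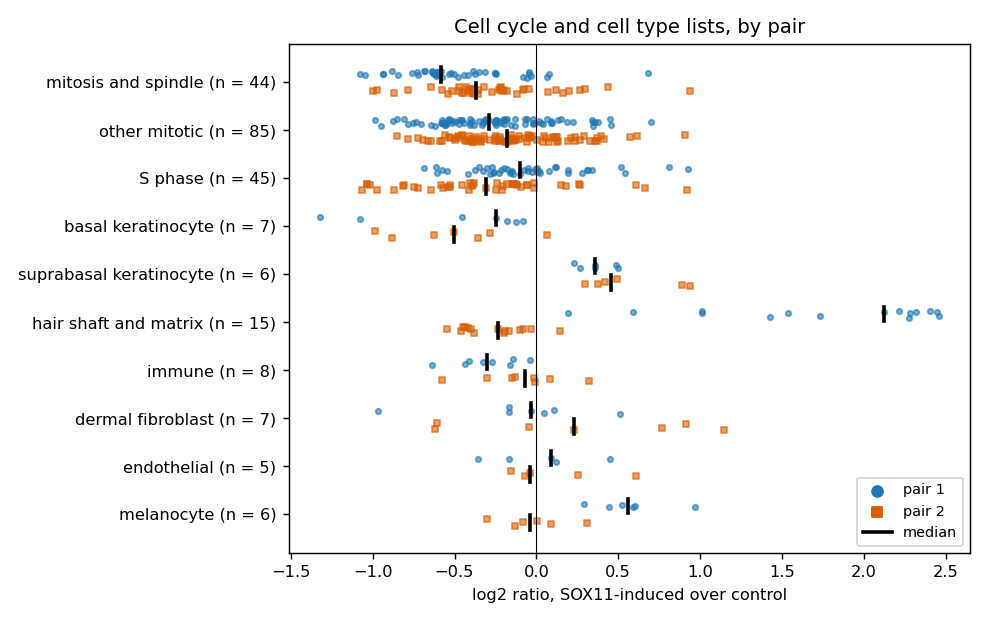
Log2 ratio (x axis) of every gene of the cell cycle lists and of the cell type marker lists, in pair 1 (circles) and pair 2 (squares), with black bars at the medians. The medians of the members and of the other mitotic, S phase, basal keratinocyte and immune genes lie left of 0 in both pairs. The suprabasal genes are shifted right in both, and the hair shaft and matrix genes right in pair 1 alone.

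Cell type markers were read from the same arrays. The 7 basal keratinocyte markers, all above background, had a median log2 ratio of -0.41, and 2 passed the threshold: Col17a1, a hemidesmosome collagen, at -1.10 (adjusted p = 0.0067) and Krt15 at -1.03 (adjusted p = 0.0057). Krt5 was at -0.44, Itgb4 at -0.41, Krt14 at -0.31 and Trp63 at -0.23, none past it. Itga6 was at -0.01, with -0.08 in pair 1 and 0.06 in pair 2. The basal markers' summed level gave log2 ratios of -0.31 (pair 1) and -0.59 (pair 2), and that of the members -0.63 and -0.35. The 6 suprabasal markers, among them Krt1, Krt10 and Lor, were between 0.34 and 0.62 with 0 past the threshold, and their summed level was 0.37 higher in log2 in pair 1 and 0.59 in pair 2. Of the hair shaft and matrix markers, a compartment that also holds dividing cells, 14 of 15 were above background, with Shh below it. The summed level of the 8 immune markers had log2 ratios of -0.31 and -0.30, with Lyz2 not above background. Among the 7 dermal fibroblast markers Pdgfra, Lum and Twist2 were not above background, Dcn was lower at -0.79 (adjusted p = 0.026), and the collagen genes Col1a1 (0.37), Col3a1 (0.37) and Col1a2 (0.49) did not pass. Summed over that list, the log2 ratio was -0.39 (pair 1) and 0.35 (pair 2). Cdh5, Tek and Emcn of the 5 endothelial markers were not above background, and the 6 melanocyte markers had a median of 0.56 in pair 1 and -0.04 in pair 2. The part of these shifts in the values of the mitotic genes was not tested.

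**Figure D5:**
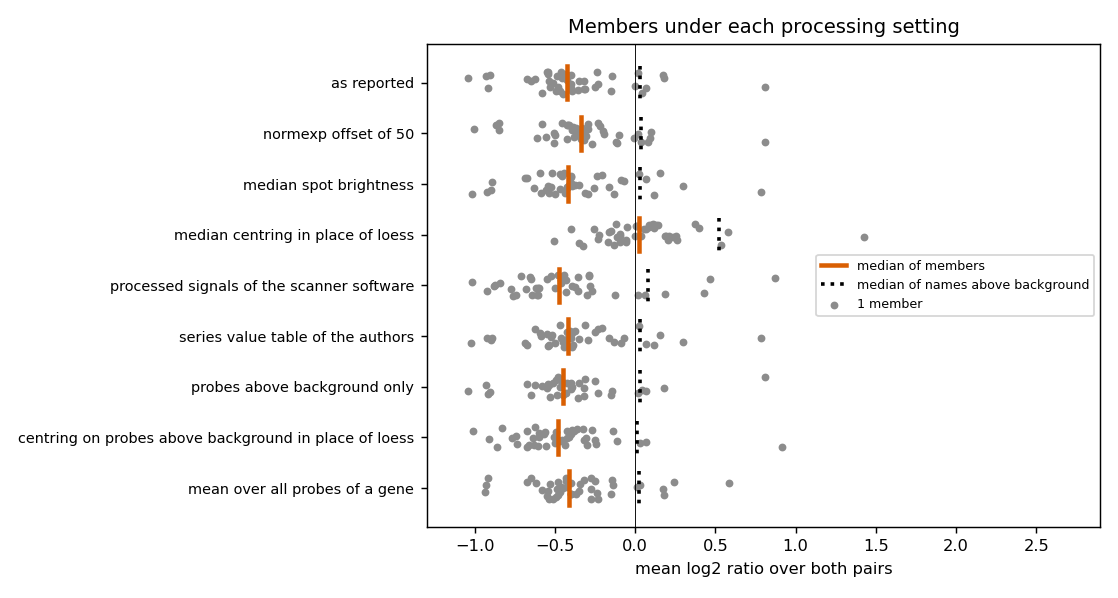
Mean log2 ratio over both pairs (x axis) of each member (grey points) under each way of processing the arrays (rows), with the median of the members (orange) and the median of the names above background (dotted). The median of the members minus that of the names above background is between -0.55 and -0.37 in every row, including median centring, where both shift to the right.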

How the data were processed

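RNA from the epidermis of 2 littermate pairs was measured on 1 array per pair. Per the file headers, the intensity values that the authors deposited are spot and local background brightness written by Agilent Feature Extraction 10.7.3.1 (scanner G2505C), which places probes on mm9. The deposited series table holds the authors' log2 ratios. Rebuilding them from median spot brightness with the normexp and loess settings below, but with outlier spots kept, left differences of at most 0.0047. The methods also describe a colour swap, which the labels do not show, and a ComBat step for dye.

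Mean brightness was corrected with normexp (offset 16) against median background and centred by loess in limma 3.58.1 (R 4.3.3). Control spots had no weight, and 194 and 186 outlier spots were left out. An intercept was fitted to both log2 ratios of each of 55676 probes with eBayes (8.34 prior degrees of freedom, prior SD 0.223), and p-values were Benjamini-Hochberg adjusted over all probes. The fit was also run on data simulated from its own prior spread, without dye or pair effects, so that run does not check the calls. A probe was above background where 0.5 or more of its spots carried the software's mark for it. The brightest probe stood for a gene. Levels in 1 channel were scaled between arrays (Aquantile), which leaves the log2 ratios as they were. Tables were handled in Python 3.11.15 with pandas 2.3.3.

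Members and lists were chosen with earlier results of these data known. Members past an adjusted p of 0.05 and the 5 lowest and 5 highest were given in full. Listed genes past it, up to 6 per list and direction, were named, with Foxm1 and Mybl2. Promoters came from RefSeq (GRCm38.p6). The alternatives were other normexp, brightness and centring choices, the software's processed signals, the deposited log2 ratios, background and probe filters, and each pair left out. The number of arrays limits the precision.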

Additional observations from a re-analysis of the deposited data

How the results depend on the processing

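Levels are relative to the curve through all probes, and 2 pairs with 1 dye orientation limit every call. With an offset of 50, which called 3.71% of all names lower and 6.26% higher, 17 members were lower. Median centring, which called 10.4% of all names lower and 26.8% higher, gave 1 lower (Aurkb, not above background) and 3 higher (Pttg1, Mad2l1 and Tpx2), with a median of 0.026, and none of the 5 members called lower passed the threshold under it. Centring on probes above background (chosen after seeing the data), which called 52.8% of all names lower and 7.65% higher, gave 29 lower. Processed signals, which called 0 of all names, gave 0 lower and 0 higher in limma, with 16 and 1 at an unadjusted p under 0.05. The share of all names at that unadjusted p was not counted. The mean over all probes, which called 1.27% of all names lower and 2.67% higher, gave 3 lower and 0 higher. Of 8 alternatives, Ccna2, Spc25, Mki67 and Pttg1 passed in 6, Birc5 in 5 and Anln in 3. With each pair left out the members' median lay between -0.58 and -0.37, each a value with no test. Under median centring the following were positive: Aurka 0.11, Ccnb2 0.19, Ccnf 0.087, Cdc20 0.10, Cdc25b 0.0067, Cdc25c 0.13, Cdca3 0.014, Cdca8 0.070, Cenpa 0.19, Cenpe 0.37, Cks2 0.0017, Ect2 0.054, Espl1 0.21, Hmmr 0.40, Incenp 0.24, Plk1 0.086, Racgap1 0.21, Top2a 0.039 and Ube2c 0.26. Centring on probes above background gave -0.36 for Cenpf, -0.39 for Dlgap5 and -0.25 for Ttk, and the mean over probes -0.14 for Dlgap5 and 0.014 for Nuf2. For the other mitotic genes, an offset of 50 gave 18 lower and 3 higher, processed signals 0 and 0, probes above background alone 11 lower, centring on those probes 43 lower and 3 higher with a median of -0.40, median centring 21 higher with a median of 0.11, and median brightness and the deposited log2 ratios 0 higher. For the S phase genes, median brightness gave 1 lower, median centring 1 lower and 13 higher with a median of 0.10, processed signals 0 and 0, the deposited log2 ratios 2 lower, centring on probes above background 17 lower with a median of -0.41, and the mean over probes 2 lower and 1 higher. The counts of both lists under either centring, the offset of 50 or the mean over probes are to be read against those shares of all names. Median brightness called 1.33% of all names lower and 2.72% higher, and the deposited log2 ratios 1.39% and 2.82%. With probes above background alone, 4.31% of the names above background were called lower and 8.05% higher. The fit is itself paired, since each ratio is the difference within a littermate pair. The cause of these changes was not tested.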
